A study of Homo sapiens with 8 samples.

Results

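Transcripts of Polycomb repressive complex 2 (PRC2) and of its cofactor JARID2 were followed into the Argonaute 2 (Ago2) precipitate of L1236 cells, an established line from Hodgkin lymphoma. The genes were the 10 named JARID2, EZH1, EZH2, EED, SUZ12, RBBP4, RBBP7, MTF2, PHF1 and PHF19, taken with every probe whose accession maps to them. On the array, 13 of 41000 probes mapped to 9 of the 10 genes. No probe mapped to EED, the subunit that reads the mark the complex makes, and EED was not analysed here. All 13 probes were among the 22471 that passed the filters on detection and dye consistency, and all 13 were well above background in all 8 channels.

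The cells had been transduced with the empty pMSCV-PIG retroviral vector (EV cells) or with the same kind of vector carrying a miR-155 sponge (sponge cells), an RNA that offers miR-155 repeated sites to pair with, and in both cases GFP+ cells were sorted. From each population, the total RNA (T fraction) and the RNA precipitated by an anti-Ago2 antibody (IP fraction) were hybridised. Each of the 4 RNA samples was labelled in Cy3 and in Cy5 and measured on 4 two-colour arrays, which gives 8 channels and 1 RNA sample per group. No difference below therefore has a replicate check, no p-value is given, and ± is the SD over the 2 dye orientations, or over the 2 dyes for a change within T or within IP, which covers labelling and hybridisation only. As a model, the comparison rests on 1 cell line and 1 sorted culture of each kind. In bulk RNA, fewer cells that express a transcript and less transcript per cell cannot be told apart.

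At the scanner, sponge T in Cy5 stood below the other channels, with 54.1% of its spots well above background where the remaining 7 had 61.0% to 65.7%. The orientation with IP in Cy5 does not use that channel, and its values are given beside the mean changes in IP/T. Of the genes that mark Hodgkin cells, 6 of 6 (TNFRSF8, CCL17, IRF4, TRAF1, BATF3 and FSCN1) were well above background in every T channel. Some markers of other cells were detected as well (CD3E and CD8A of 3 T-cell genes, CD14 and CSF1R of 3 myeloid genes), and CD3D and LYZ were not. The part of these in the values below was not tested.

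PRC2 silences genes by adding methyl groups to a lysine of histone H3. EZH2 or its paralog EZH1 carries the catalytic domain, EED and SUZ12 hold the enzyme in its active form, and the histone chaperones RBBP4 and RBBP7 bind the complex to nucleosomes. JARID2, a relative of the JARID1 histone demethylases that has lost demethylase activity, and the Polycomb-like proteins PHF1, MTF2 and PHF19 bring the complex to chromatin in alternative forms. In B cells, EZH2 is known for its high level in proliferating germinal centre cells and for its role in lymphoma. Ago2 carries microRNAs and holds the transcripts that they pair with, mostly through the seed at bases 2 to 8 of the microRNA. IP over T (IP/T) is a relative measure here, since all channels were normalised to the same distribution of signals. A ratio that is not raised therefore does not show that a transcript was not bound by Ago2. No precipitate of a control antibody is among these samples. JARID2 has been described as a target of miR-155, the microRNA that the sponge was built to bind, and EZH2 as a target of miR-101 and miR-26a.

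The mature microRNAs are shown 5′ to 3′ with the seed in capitals, from RefSeq on GRCh38.p14, because the comparison of EV with sponge cells is about the first of them and because miR-101 and miR-26a are known regulators of the catalytic subunit.

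hsa-miR-155-5p: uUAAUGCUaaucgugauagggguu

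hsa-miR-101-3p: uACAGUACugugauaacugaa

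hsa-miR-26a-5p: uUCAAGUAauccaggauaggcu

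In the annotation used, the miR-155 sequence is listed at chr21:25573983-25574006 on the plus strand and that of miR-101 at chr9:4850345-4850365 on the plus strand. That of miR-26a is listed at chr3:37969413-37969434 on the plus strand and at 1 more locus, making 2 in all. This listing need not hold every locus of a microRNA. No other mature human microRNA in the table had the seed of miR-155, and 3 (miR-1297, miR-26b-5p and miR-4465) shared that of miR-26a. The seed of miR-155 is identical to that of miR-101 at 1 position and to that of miR-26a at 3. Transcript sequences were not used here, and which of the members carry a match to any of these seeds was not analysed.

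In EV cells, 3 of the 9 measured genes were at least 2-fold enriched in the IP fraction: MTF2, JARID2 and EZH1. In sponge cells it was again these 3 genes. By probe they are 3 of 13 (23.1%), and of all 22471 kept probes 17.5% reached this ratio in the EV and 17.5% in the sponge population. None of the 9 genes was at least 2-fold lower in IP than in T in either population, where 19% of all kept probes were in the EV and 17.8% in the sponge population. The median log2 IP/T of the 9 genes, each taken at its probe of highest mean signal, came to 0.19 for EV and 0.28 for sponge cells, beside medians of -0.16 and -0.13 over all kept probes. The members thus spread from 5.60-fold higher in IP for MTF2 to 0.53 times the T signal for RBBP7, and the other 10 probes lay within 2-fold, from -0.92 to 0.81 on the log2 scale.

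**Figure D1:**
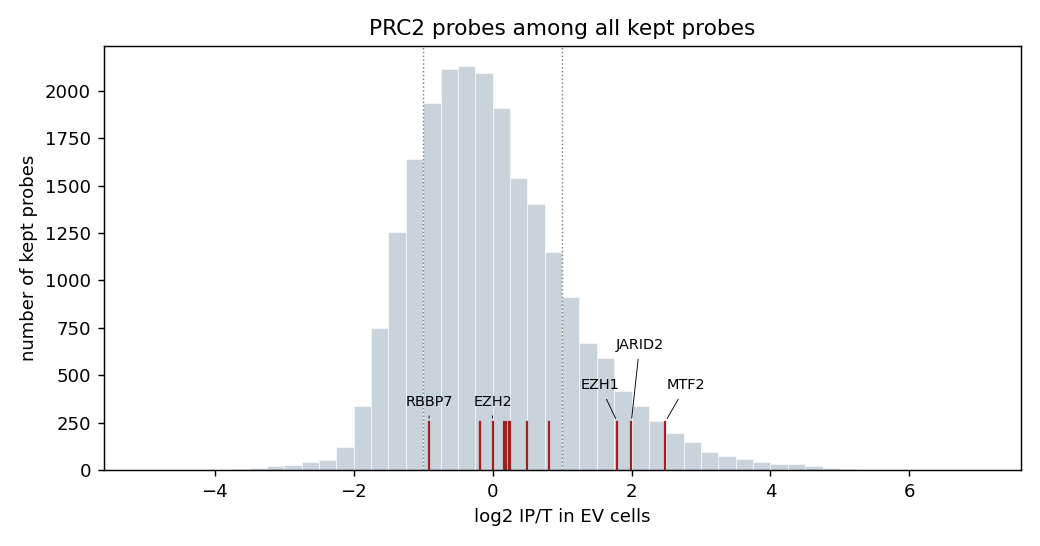
Histogram of log2 IP/T in EV cells over all 22471 kept probes (x axis, log2 ratio; y axis, number of probes), with red ticks at the 13 PRC2 probes and dotted lines at a 2-fold difference. JARID2 (2.00), EZH1 (1.79) and MTF2 (2.49) lie to the right of the upper line, EZH2 near 0 and RBBP7 (-0.92) just inside the lower line.

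JARID2 was measured by 1 probe (A_23_P214876, NM_004973). Its normalised log2 signals in EV cells were 10.39 (Cy3) and 10.51 (Cy5) in T, and 12.28 and 12.62 in IP. In sponge cells they were 10.55 and 10.61 in T, and 12.11 and 12.42 in IP. Both dyes put both IP samples far above both T samples, with no overlap. In EV cells the log2 IP/T stood at 2.00 ± 0.33, a 3.99-fold ratio, and in sponge cells at 1.69 ± 0.25, a 3.22-fold ratio. Of all kept probes, 5.94% had an IP/T at or above that of JARID2 in EV cells and 8.18% in sponge cells.

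EZH1, the catalytic paralog that prevails in resting cells, was read by 1 probe (A_23_P428219, NM_001991). Its log2 signals were 10.11 and 10.40 in EV T, 12.08 and 12.01 in EV IP, 10.03 and 10.68 in sponge T, and 11.97 and 11.83 in sponge IP, in the order Cy3 and Cy5. Here too both IP samples were above both T samples in either dye, and the pair of T labellings in sponge cells lay farthest apart. This gave a log2 IP/T of 1.79 ± 0.16 (3.47-fold) for the EV and 1.55 ± 0.37 (2.92-fold) for the sponge population.

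EZH2, the catalytic paralog of proliferating cells (A_23_P259641, NM_004456), had nearly the same signal in all 4 RNA samples. Its log2 signals were 12.66 and 12.52 in EV T, 12.60 and 12.57 in EV IP, 12.80 and 12.38 in sponge T, and 12.64 and 12.41 in sponge IP. The values of the 4 samples overlapped. IP over T was 1.00-fold in EV cells, with an SD of 0.12 on the log2 scale, and the log2 IP/T was -0.07 ± 0.46 in sponge cells. An IP/T at or above that of EZH2 was found in 44.2% of kept probes with EV and 47.6% with sponge cells. As read by 1 probe each, the catalytic paralogs differed in IP/T: EZH1 exceeded EZH2 by 1.79 ± 0.27 in EV cells, a 3.47-fold difference between their ratios, and by 1.61 ± 0.83 in sponge cells. The ± does not cover differences between probes of the same gene. Below, such probes lie close together for SUZ12 and far apart for PHF19 and PCGF3.

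**Figure D2:**
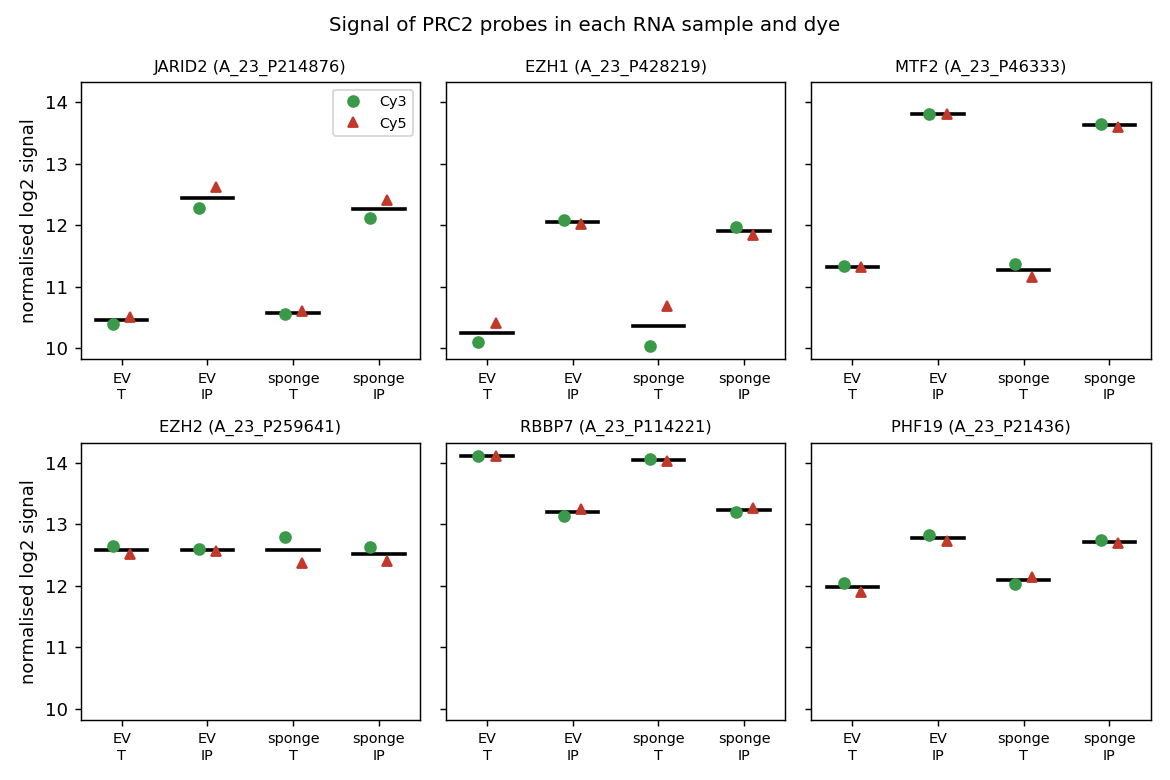
Normalised log2 signal (y axis) of 6 PRC2 probes in the 4 RNA samples (x axis), with Cy3 as circles, Cy5 as triangles and the mean as a bar. For JARID2, EZH1 and MTF2 the IP signals lie above the T signals in both cell populations, for RBBP7 below them, and for EZH2 at about the same height.

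SUZ12, the scaffold of the core complex, had 3 probes annotated to NM_015355, and none reached 2-fold. The brightest (A_23_P100883) had log2 signals of 13.88 and 13.69 in EV T, 14.34 and 14.23 in EV IP, 13.88 and 13.47 in sponge T, and 14.17 and 14.07 in sponge IP. Its IP signals were above its T signals in both dyes, with a log2 IP/T of 0.50 ± 0.22 for EV and 0.45 ± 0.36 for sponge cells. The other probes gave 0.25 ± 0.26 (A_24_P873263) and 0.23 ± 0.04 (A_32_P24223) in EV cells, and 0.49 ± 0.44 and 0.30 ± 0.03 in sponge cells. The 3 probes thus lay on the same side of 0. In EV cells the brightest probe exceeded A_32_P24223 by more than the SD of either. Every other difference between probes, in either population, was within the larger SD of its pair. SUZ12 has a closely similar pseudogene, and RBBP4 and RBBP7 are close paralogs. Whether a probe also captures such a relative was not tested, since probe sequences were not used here.

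The chaperones RBBP4 and RBBP7 parted. RBBP4 (A_23_P326691, NM_005610) had log2 signals of 12.75 and 12.57 in EV T, 12.82 and 12.83 in EV IP, 12.88 and 12.57 in sponge T, and 12.76 and 12.69 in sponge IP, with overlap between IP and T in sponge cells. RBBP7 (A_23_P114221, NM_002893) had 14.12 and 14.11 in EV T, 13.14 and 13.25 in EV IP, 14.07 and 14.04 in sponge T, and 13.20 and 13.26 in sponge IP. RBBP7 was the member with the lowest IP/T, and its IP and T signals did not overlap in either population.

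In log2 IP/T, RBBP7 stood at -0.92 ± 0.07 in EV cells and -0.82 ± 0.02 in sponge cells, where RBBP4 stood at 0.16 ± 0.12 in EV cells and at 0.999 times the T signal in sponge cells. RBBP4 exceeded RBBP7 by 1.08 ± 0.20 in EV cells, 2.11-fold, and by 0.82 ± 0.29 in sponge cells. A second RBBP4 probe (A_24_P912095) was much dimmer in every channel, at 6.52 to 7.36. It gave -0.18 ± 0.19 in EV cells and 0.29 ± 0.65 in sponge cells, where its 2 orientations were -0.17 and 0.75, and its value of 6.52 comes from sponge T in Cy5.

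MTF2, a Polycomb-like protein that binds unmethylated CpG-rich DNA, had the highest IP/T of the members (A_23_P46333, NM_007358). Its log2 signals were 11.33 and 11.31 in EV T, 13.81 and 13.81 in EV IP, 11.37 and 11.16 in sponge T, and 13.65 and 13.60 in sponge IP. The IP signals exceeded the T signals without overlap, and the dyes were closer to each other than for JARID2 except in sponge T. In EV cells its log2 IP/T reached 2.49 ± 0.01 (5.60-fold), and in sponge cells 2.36 ± 0.18 (5.13-fold). MTF2 was the 1 member probe at 4-fold or more in EV cells, where 5.91% of all kept probes were, and 3.35% of kept probes had an IP/T at or above it.

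PHF1, also called PCL1 (A_23_P156732, NM_024165), had log2 signals between 9.67 and 9.76 in the 4 T channels and between 9.85 and 10.06 in the 4 IP channels. The IP signals were all above the T signals, by a small margin. For PHF1 the log2 IP/T came to 0.19 ± 0.07 with EV and 0.28 ± 0.13 with sponge cells.

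PHF19, also called PCL3, had a probe for each of 2 RefSeq transcripts, and these did not give the same ratio. The probe annotated to NM_015651 (A_23_P21436) had log2 signals of 12.04 and 11.91 in EV T, 12.84 and 12.73 in EV IP, 12.03 and 12.15 in sponge T, and 12.74 and 12.69 in sponge IP, with IP above T throughout. The probe annotated to NM_001009936 (A_23_P401904) had 13.39 and 13.16 in EV T, 13.24 and 12.95 in EV IP, 13.48 and 13.32 in sponge T, and 13.26 and 13.23 in sponge IP, with T and IP overlapping in EV cells. The respective log2 IP/T values were 0.81 ± 0.17 and -0.18 ± 0.36 in EV cells, and 0.62 ± 0.05 and -0.15 ± 0.13 in sponge cells. The difference between the probes was 0.99 ± 0.19 in EV cells, 1.98-fold, and 0.78 ± 0.17 in sponge cells, so that the IP/T of PHF19 depended on which probe was read.

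In order of IP/T in EV cells, MTF2 came first, above JARID2 in both orientations (2.48 against 2.23 with IP in Cy5, and 2.49 against 1.77 with IP in Cy3). JARID2 and EZH1 (1.91 and 1.68) came next and differed by less than the SD of JARID2. A wide step led to the NM_015651 probe of PHF19. Below it, the SUZ12, PHF1 and RBBP4 probes, EZH2 and the other PHF19 probe lay with neighbours closer than the larger of their SDs, except for the steps from PHF19 to the brightest SUZ12 probe and from the brighter RBBP4 probe to EZH2. RBBP7 stood last, apart from them. Within the Polycomb-like family, MTF2 exceeded PHF1 by 2.30 ± 0.09 in EV cells (4.92-fold) and by 2.08 ± 0.05 in sponge cells. Against the brighter PHF19 probe, the excess of MTF2 was 2.67 ± 0.35 in EV cells (6.34-fold) and 2.51 ± 0.05 in sponge cells, and against the NM_015651 probe it was 1.68 ± 0.16 (3.20-fold) and 1.73 ± 0.22. JARID2 exceeded the core subunits EZH2 by 2.00 ± 0.44 and SUZ12 by 1.50 ± 0.54 in EV cells, and by 1.75 ± 0.71 and 1.24 ± 0.61 in sponge cells.

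**Figure D3:**
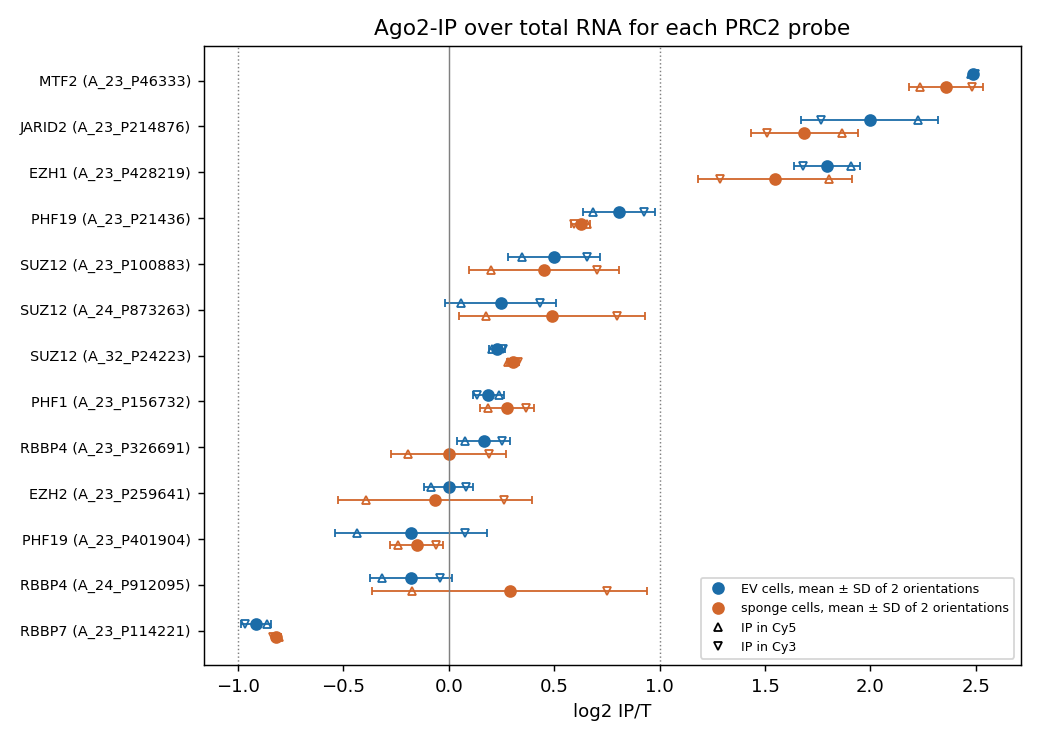
log2 IP/T (x axis) of each of the 13 PRC2 probes (y axis, highest in EV cells at the top) in EV and sponge cells. Filled points and bars are the mean ± SD of 2 orientations, open triangles the single orientations, and dotted lines mark a 2-fold difference. MTF2, JARID2 and EZH1 lie beyond 2-fold in both populations, and RBBP7 is the lowest in both.

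The second question was whether the transcripts differed between EV cells and cells with the sponge, in the T fraction, in the IP fraction and in their ratio. How much of the miR-155 the sponge held was not measured on these arrays. None of the 13 probes changed by 2-fold or more in T, in IP or in IP/T, where 0.409%, 0.151% and 0.312% of all kept probes did. The largest differences among the members, in either direction on the log2 scale, were 0.34 in T, 0.24 in IP and 0.47 in IP/T. Over all kept probes, the SD of the change was 0.25 in T, 0.22 in IP and 0.25 in IP/T.

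JARID2 had a higher T signal in sponge cells in both dyes, by 0.16 in Cy3 and 0.09 in Cy5 (mean 0.13 ± 0.05). In IP the difference was -0.16 in Cy3 and -0.20 in Cy5 (mean -0.18 ± 0.03). The log2 IP/T was therefore lower in sponge cells in both orientations, at -0.36 (IP in Cy5) and -0.26 (IP in Cy3) (mean -0.31 ± 0.07). JARID2 had the 1 member probe whose T signal was higher and whose IP signal was lower in both dyes, each mean being larger than its SD. How many of all kept probes had this pattern was not counted. Both means were smaller in size than the SD of the change over all kept probes (0.25 in T and 0.22 in IP). A change in IP/T as low as that of JARID2 or lower was found in 7.55% of all kept probes. Among kept probes with an IP/T of 2 or more in EV cells, 12.3% had such a change. Those enriched probes had a median change of -0.08 in IP/T, of -0.12 in IP and of -0.05 in T. A lower IP signal in sponge cells was thus common among them, and a higher T signal was not their median. They were chosen on their EV ratio, and the change is taken from the same EV values. That choice by itself favours a lower IP and IP/T in sponge cells, here and in the shares of enriched probes below. The part of this choice in these values was not tested.

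MTF2 and EZH1, the other enriched members, had an IP signal that was lower in sponge cells in both dyes, by about as much as that of JARID2. For MTF2 the change in IP was -0.18 ± 0.03 and for EZH1 it was -0.15 ± 0.04. Lower in IP in both dyes were 6 of the 13 probes (46.2%), where 35.7% of all kept probes and 63.0% of the probes enriched in EV cells were. As many, 6, were higher in both dyes, and the share of all kept probes that were higher was not computed. The lower ones included probes that were not enriched. These were the brightest SUZ12 probe (-0.16 ± 0.01), the brighter RBBP4 probe (-0.10 ± 0.05) and the NM_015651 probe of PHF19 (-0.07 ± 0.04). In T, neither MTF2 nor EZH1 moved the same way in both dyes, with 0.04 and -0.15 for MTF2 and -0.08 and 0.28 for EZH1 in Cy3 and Cy5. Their IP/T was lower in both orientations, at -0.24 and -0.01 for MTF2 (mean -0.13 ± 0.17) and at -0.10 and -0.39 for EZH1 (mean -0.25 ± 0.21), in the order IP in Cy5 and IP in Cy3. For MTF2 the mean was within its SD, and for EZH1 the SD was nearly as large as the mean.

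The IP/T was lower in both orientations for 5 of the 13 probes (38.5%), where it was for 28.8% of all kept probes and 43.5% of those enriched in EV cells. Beside JARID2, EZH1 and MTF2, these were RBBP4 (A_23_P326691, -0.17 ± 0.15, and -0.27 with IP in Cy5) and the NM_015651 probe of PHF19 (-0.18 ± 0.22, and -0.03 with IP in Cy5). For 4 probes (30.8%) it was higher in both, where it was for 35.1% of all kept probes. These were RBBP7 (0.10 ± 0.05), SUZ12 by A_24_P873263 (0.24 ± 0.18) and by A_32_P24223 (0.08 ± 0.01), and the dim RBBP4 probe (0.47 ± 0.46). With IP in Cy5, the first 3 stood at 0.06, 0.12 and 0.08. For the dim RBBP4 probe the T change was -0.05 in Cy3 and -0.64 in Cy5, so that its mean rests on the channel with the fewest spots above background, and with IP in Cy5, which does not use that channel, the change in IP/T was 0.14. Neither SUZ12 nor RBBP4 had probes that all moved the same way.

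The difference for EZH2 was smaller than its SD in all 3 measures, at 0.00 ± 0.20 in T, -0.06 ± 0.15 in IP and -0.06 ± 0.35 in IP/T, the last being -0.31 (IP in Cy5) and 0.18 (IP in Cy3). For PHF1 it was 0.04 ± 0.09 in T and 0.12 ± 0.11 in IP. RBBP7 differed by -0.06 ± 0.02 in T and 0.03 ± 0.03 in IP. The median change in IP/T over the 9 genes was -0.06, beside 0.02 over all kept probes, and differences of this size lie within the SD over the dyes.

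**Figure D4:**
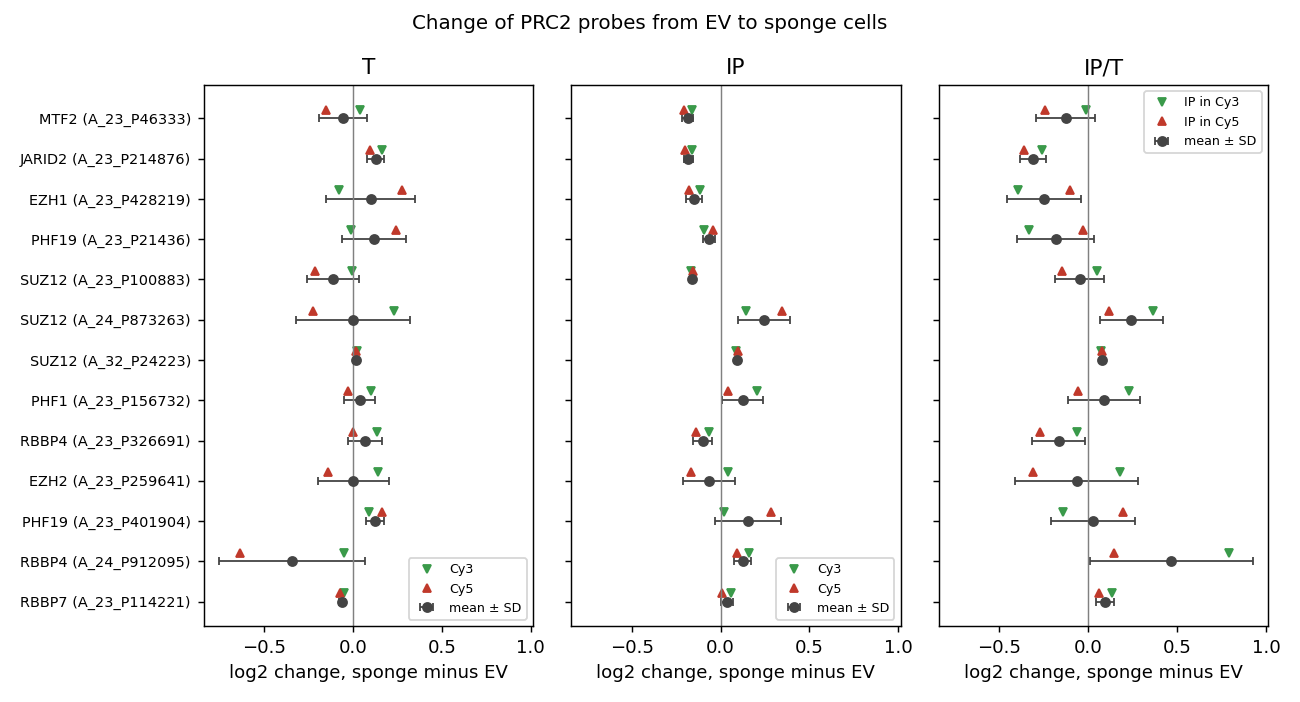
Change from EV to sponge cells (x axis, log2, sponge minus EV) of each PRC2 probe in T (left), IP (middle) and IP/T (right). Dark points and bars are the mean ± SD, and the coloured triangles are the single dyes or orientations. JARID2 lies above 0 in T and below 0 in IP and IP/T with both triangles, and MTF2 and EZH1 lie below 0 in IP with both.

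The pattern of JARID2 over the 8 channels was set beside those of all kept probes with a gene symbol, each centred on its own mean, by Euclidean distance. The 5 nearest genes were RCOR1 (0.266), a corepressor of the CoREST complex, EPM2AIP1 (0.269), PPP2CB (0.275), a catalytic subunit of a protein phosphatase, NR3C1 (0.276), the glucocorticoid receptor, and RTL8C (0.292). The median distance over all kept probes, with or without a symbol, was 2.90. The log2 IP/T of the 5 nearest genes lay between 1.90 and 2.05 in EV cells and between 1.70 and 1.90 in sponge cells. Among the members, EZH1 was nearest to JARID2 at 0.656, with 596 kept probes nearer, followed by MTF2 at 0.932 with 1555 nearer. RBBP7 was the farthest at 3.85, with 17124 nearer. Since all distances share the same 8 channels of 4 RNA samples, they describe these arrays. The IP/T is computed from those channels too, so that genes near to JARID2, members included, have a similar IP/T by construction.

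Other Polycomb genes and related histone demethylases were listed beside the members. Of 36 genes, 33 had a mapped probe and 30 a kept one. At least 2-fold enriched in IP were 9 of the 30 in EV cells, with 8 in the sponge population, and 4 were at least 2-fold lower in EV cells. Of all kept probes, 17.5% were enriched in each population and 19% were lower in EV cells. Over the 30, log2 IP/T had a median of 0.41 for EV and 0.48 for sponge cells. None of the 30 changed by 2-fold or more between EV and sponge cells in T, IP or IP/T. The median change in IP/T was -0.01, with 17 of the 30 below 0, as were 46.9% of all kept probes.

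The highest log2 IP/T on this list belonged to KDM5B, a histone H3 lysine 4 demethylase of the JARID1 family, at 3.06 ± 0.06 in EV cells and 2.90 ± 0.29 in sponge cells (A_32_P70724). A further KDM5B probe, which in each T sample was well above background in Cy3 but not in Cy5, gave 1.89 ± 0.08 in EV cells. LCOR, whose locus also encodes a PRC2 accessory protein, followed at 2.63 ± 0.06 and 2.60 ± 0.10, and in sponge T it was well above background in 1 of the 2 channels, not in Cy5, so that its sponge ratio rests on Cy3 for a measured T signal. PCGF3, a subunit of a variant PRC1, had 2.43 ± 0.06 and 2.16 ± 0.00, a change of -0.27 ± 0.06 (-0.31 with IP in Cy5), while its other probes gave 2.21 ± 0.08 and 0.75 ± 0.18 in EV cells. All 3 genes were thus above JARID2 in EV cells by the probe of highest signal.

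AEBP2, the cofactor that with JARID2 makes up one of the alternative PRC2 forms, was at 0.78 ± 0.03 in EV cells, short of 2-fold. Both demethylases that remove the PRC2 mark were enriched in EV cells, with KDM6A at 1.29 ± 0.36 and KDM6B at 1.25 ± 0.43. The lowest values belonged to RING1, a ubiquitin ligase of PRC1, at -1.27 ± 0.16 in EV cells and -1.26 ± 0.07 in sponge cells. BAP1, the deubiquitinase that reverses the PRC1 mark, followed at -1.17 ± 0.01 and -0.90 ± 0.25, and L3MBTL2 of variant PRC1 at -1.08 ± 0.30 and -0.98 ± 0.06. A further BAP1 probe gave -1.13 ± 0.01 and -0.60 ± 0.21, a change of 0.53 ± 0.20. A further L3MBTL2 probe gave -1.16 ± 0.04 and -0.91 ± 0.07. The paralog of RING1, RNF2, was at 1.60 ± 0.17 in EV cells and 1.38 ± 0.49 in sponge cells, so that this catalytic pair lay on both sides of 0.

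By group, 4 of the 11 kept core and canonical PRC1 genes were at least 2-fold enriched in EV cells and 1 was at least 2-fold lower (median 0.38). In variant PRC1, 1 of 10 was enriched and 1 was lower (median 0.30). Of the 3 genes of the deubiquitinase complex, none was enriched and 2 were lower (median -1.08). Beside the 17.5% of enriched and 19% of lower probes over the whole array, the groups hold too few genes to be set apart.

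**Figure D5:**
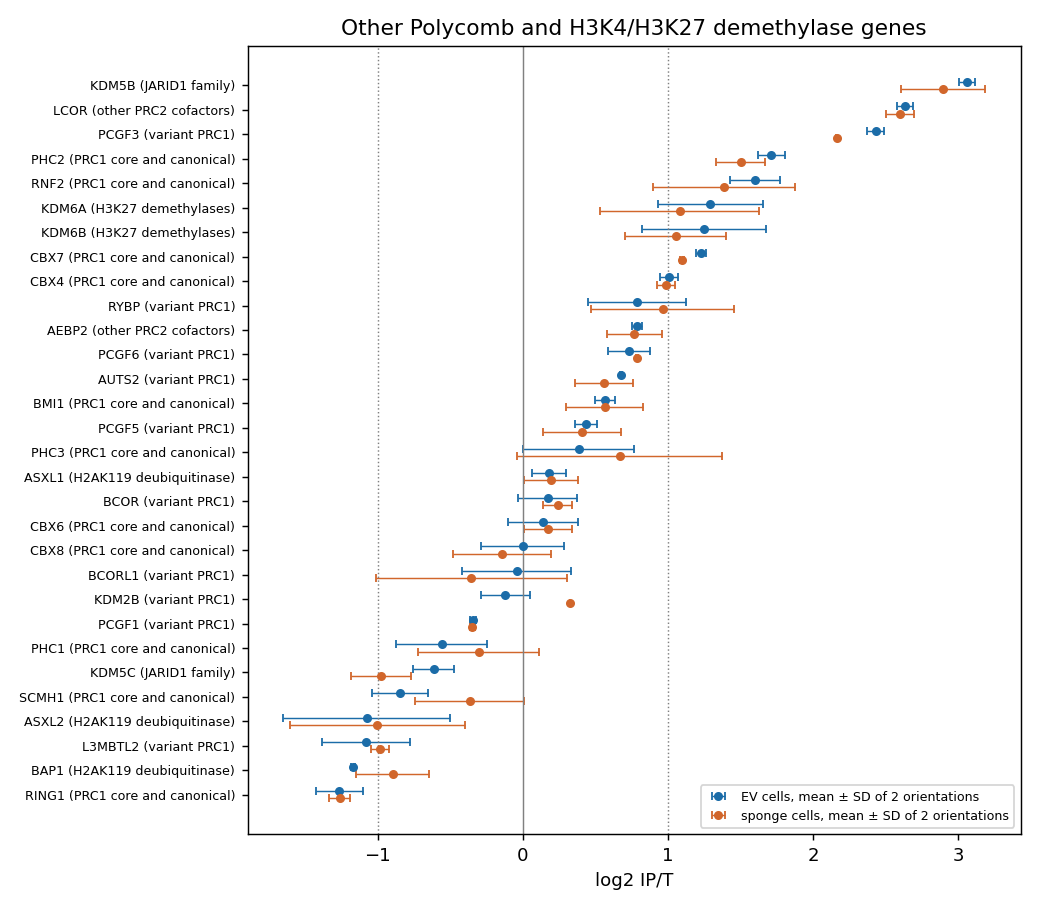
log2 IP/T (x axis) of the 30 other Polycomb and demethylase genes (y axis, with their group, highest in EV cells at the top) in EV and sponge cells, as the mean ± SD of 2 orientations. KDM5B, LCOR and PCGF3 are the highest in EV cells and L3MBTL2, BAP1 and RING1 among the lowest, and dotted lines mark a 2-fold difference.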

How the data were processed

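Per the file headers, the authors extracted spot intensity values with Agilent Feature Extraction (10.7.3.1, where the labels name 10.5.1.1), which subtracts background and corrects for dye. The 8 deposited files are 4 distinct arrays, each given under both of its samples, and each sample's own dye channel was used. The deposited series table holds log2 values that the authors normalised (quantile) and served as an alternative. Here, control and outlier spots were left out, log2 processed signals of a probe's spots were averaged and quantile normalised over 8 channels (Python 3.11.15, numpy 2.4.6, pandas 2.3.3). Probes were kept if well above background in at least 4 channels, with Cy3 and Cy5 within 2-fold in each RNA sample: 25827 of 41000 were detected, 3356 were then removed and 22471 left. Since a group holds 1 RNA sample, no test was run. The number of arrays limits the precision.

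Gene symbols came from matching probe accessions to RefSeq genes of GRCh38.p14, for names only since the array annotation follows hg18. A symbol was found for 15624 kept probes (69.5%), which stand for 11201 genes. A gene with several probes was counted at the kept probe with the highest mean signal, and percentages are of all kept probes. Members and lists were chosen with earlier results of these data known. Named beside the members were the 3 other Polycomb genes at each end of IP/T in EV cells and the 5 genes nearest to JARID2. AEBP2, KDM6A, KDM6B and RNF2 were named for their roles after their values were seen. Alternatives covered scaling to the 75th percentile, normexp (limma 3.58.1 in R 4.3.3, offset 50, on median spot signals), the authors' values, the filters, the choice of probe, single dyes and single orientations. The calculation was tested on simulated data. A further list of marker genes is not reported here.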

Additional observations from a re-analysis of the deposited data

How the results depend on the processing

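Under all 12 alternatives, 3 PRC2 genes were at least 2-fold enriched in EV cells and 0 probes changed 2-fold in T or in IP. The change of JARID2 in IP/T stayed below 0, from -0.36 to -0.26, with a change in T of 0.09 to 0.19 and in IP of -0.20 to -0.11. The ends of its IP/T range are the single orientations already given. The log2 IP/T of JARID2 in EV cells moved by more than its SD under normexp, to 1.61 with loess and Aquantile and 1.57 with quantile normalisation, against 2.00. The median log2 IP/T of the 9 genes, 0.19, became 0.27 and 0.14 under these, 0.50 with the probe of highest IP/T per gene, 0.25 with Cy5 labels alone, 0.24 with IP in Cy5 alone and 0.25 with IP in Cy3 alone. The cause of the normexp differences was not tested. The median change in IP/T ranged from -0.15 to -0.01. Under normexp, 8.77% and 7.58% of all kept probes were at least 2-fold enriched in EV cells. Of 756 values of single probes under the alternatives, 697 moved by less than the SD, 59 by more, and 0 of those at 2-fold or more changed sign. Many of these could not move. Every member probe passed each filter, so changed filters and probe choice left single values as they were. A single orientation always lies within the SD of the mean over both. The count therefore bears mainly on the changes of normalisation. EZH2 had both signs of IP/T over the alternatives, from -0.16 to 0.08 in EV cells. No paired analysis was possible because each group holds 1 RNA sample. The SD over dyes leaves out variation between cultures and between precipitations, so differences between EV and sponge cells of the size seen for JARID2 cannot be set against it.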
